A study of Mus musculus with 743 samples.

Results

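Schwann cells (SCs) of the sciatic nerve at postnatal day 1 that carried transcripts of Atf3, a transcription factor gene of the stress and nerve injury response, were compared with SCs of the same plates that carried none. The cells came from mice with P0Cre, Rosa26 eYFP and beta-actin DsRed alleles. P0Cre labels the SC lineage. Per the methods of the study, nerves were digested with enzymes and single eYFP-positive cells were sorted into the wells of 2 plates, each from its own pool of a male and a female pup, and read with the full-length Smart-seq2 protocol. All cells share these alleles, the digestion and the sort, and no sample was prepared without digestion, so a response in the nerve and a response to the preparation cannot be told apart.

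Cells were selected on their own measured reads. Of 743 wells, 621 had at least 1500 detected genes and were kept as cells. A cell was called noncycling when Mki67 and Top2a together gave under 50 counts per 1000000 reads of that cell (CPM) and Ncmap, a gene of myelinating SCs, also gave under 50 CPM. This left 175 cells on plate 1 and 217 on plate 2. With an Atf3 level of at least 20 CPM, 119 of them were Atf3-positive, 52 on plate 1 and 67 on plate 2. With 0 Atf3 reads, 259 were Atf3-negative, 115 and 144. The remaining 14 cells, with Atf3 reads under 20 CPM, belonged to neither group.

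Atf3 is an immediate-early gene of the ATF/CREB family. Immediate-early genes such as Fos, Jun and Egr1 are transcribed within minutes of a stimulus from factors that the cell already holds, and the products of feedback genes such as Dusp1 and Socs3 then damp the signal. The same genes are well known to appear in cells taken out of a tissue by enzymes. In SCs, Jun drives the repair state that follows nerve injury, and Atf3 is a standard marker of the injured nerve.

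Atf3 itself (ENSMUSG00000026628, GRCm38 chromosome 1, 191170296 to 191218039) is given as a description, since it chose the cells. Among the positive cells its level ran from 26.8 CPM over a median of 639 to 4029 CPM on plate 1, and from 57.8 over 680 to 8272 CPM on plate 2. Few noncycling cells lay near the threshold. The closest cells outside had 19.4, 19.3 and 16.6 CPM and the closest inside 26.8, 40.7 and 43.7 CPM. At a threshold of 100 CPM, 47 and 63 of the positive cells remained.

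The windows upstream of 4 genes are shown because Atf3 chose the cells, Fos and Ccn1 were called with the plate in the model and Cxcl1 was a chemokine found in a few of the cells. Klf6, which was called too, is given without its letters, since its window held none of the motifs searched. Each is the 250 bases before the RefSeq start (GRCm38.p6), read 5′ to 3′ on the strand of the gene. The RefSeq start used for Atf3 lies inside the gene span given above, and so does its window. Capitals mark TGACGT, the core of the site that ATF/CREB factors bind, and the NF-kB site, both searched on both strands.
Atf3: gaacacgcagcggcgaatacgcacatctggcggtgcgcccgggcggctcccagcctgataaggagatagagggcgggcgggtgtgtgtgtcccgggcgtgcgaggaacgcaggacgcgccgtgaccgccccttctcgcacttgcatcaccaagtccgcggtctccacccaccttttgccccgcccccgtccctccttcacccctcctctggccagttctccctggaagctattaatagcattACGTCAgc
Fos: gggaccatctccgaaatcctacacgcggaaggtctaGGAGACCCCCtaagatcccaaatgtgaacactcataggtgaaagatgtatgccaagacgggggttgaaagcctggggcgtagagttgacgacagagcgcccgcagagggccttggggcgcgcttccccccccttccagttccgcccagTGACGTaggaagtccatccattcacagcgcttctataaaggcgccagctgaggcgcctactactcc
Ccn1: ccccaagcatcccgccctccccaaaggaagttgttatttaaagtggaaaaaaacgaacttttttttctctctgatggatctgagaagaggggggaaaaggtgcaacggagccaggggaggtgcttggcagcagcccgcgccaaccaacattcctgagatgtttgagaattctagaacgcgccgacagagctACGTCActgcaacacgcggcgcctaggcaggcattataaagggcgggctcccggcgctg
Cxcl1: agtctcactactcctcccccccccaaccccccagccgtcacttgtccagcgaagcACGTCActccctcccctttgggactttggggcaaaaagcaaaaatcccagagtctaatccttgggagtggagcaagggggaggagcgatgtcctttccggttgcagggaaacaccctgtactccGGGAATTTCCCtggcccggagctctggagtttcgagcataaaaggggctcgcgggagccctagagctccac

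These windows lie at chr1:191183334-191183583 on the minus strand for Atf3, chr12:85473640-85473889 on the plus strand for Fos, chr3:145649986-145650235 on the minus strand for Ccn1 and chr5:90890995-90891244 on the plus strand for Cxcl1. TGACGT was present once in each of the 4 windows shown, was absent from that of Klf6, and was found in 6.47% of 32851 upstream windows of the same length. Of the lists below, it was in 2 of 18 windows of immediate-early transcription factors, 7 of 17 of feedback genes and 2 of 15 of chemokines and cytokines. It was searched after the sequences had been read and the shown windows were chosen, so its presence is a description only. The NF-kB site stood once in Fos and in 2 overlapping positions in Cxcl1, against 7.25% of all windows. Of the same lists, it was in 4 of 18 windows of immediate-early transcription factors, 1 of 17 of feedback genes and 7 of 15 of chemokines and cytokines. The AP-1 site TGANTCA, present in 6.75% of all windows, and the serum response element (CArG box), present in 1.47%, had no match in the 4 windows shown or in that of Klf6. A match in letters is not a bound site.

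The share of Atf3-positive cells was close to equal on the plates and lay apart between classes of SCs. Among noncycling cells it was 29.7% on plate 1 and 30.9% on plate 2 (mean 30.3% ± 0.82, SD, n = 2 plates). The exact binomial intervals, at 95% and for counting error only, were 23.1% to 37.1% and 24.8% to 37.5%. Ngfr, the neurotrophin receptor p75, and L1cam, an adhesion molecule, mark immature and nonmyelinating SCs. Noncycling cells with a read of either gene were Atf3-positive in 39 of 97 (40.2%) and 51 of 127 (40.2%) cases, and cells without such a read in 13 of 78 (16.7%) and 16 of 90 (17.8%). The intervals of these classes did not overlap on plate 1 (30.4% to 50.7% against 9.18% to 26.8%) nor on plate 2 (31.6% to 49.2% against 10.5% to 27.3%). With 2 plates no exact test over plates can reach 0.05.

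Cycling cells, with at least 50 CPM of Mki67 and Top2a, were Atf3-positive in 13 of 53 cases (24.5%) on plate 1 and 20 of 56 (35.7%) on plate 2, a range that holds the noncycling share. Cells with at least 50 CPM of Ncmap were Atf3-positive in 0 of 59 cases on plate 1, an exact interval of 0% to 6.06% (5.08% by the limit of 3 counts), and in 2 of 60 (3.33%) on plate 2. The Atf3-positive share was therefore lowest in the cells with the myelination gene, on each plate.

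**Figure D1:**
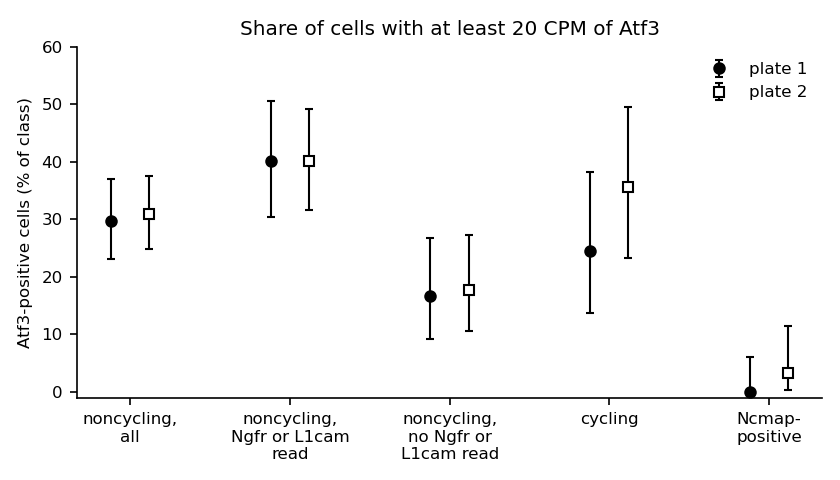
Percent of cells with at least 20 CPM of Atf3 in each class of cells, with plate 1 as filled circles and plate 2 as open squares. Bars are exact 95% binomial intervals of a plate's cells. Noncycling cells with an Ngfr or L1cam read sit at 40.2% on both plates, cells without at 16.7% and 17.8%, and Ncmap-positive cells at 0% and 3.33%.

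Depth was similar in the groups. The median was 918652 and 782591 reads in positive cells of plates 1 and 2, against 965399 and 806329 in negative cells. The median of detected genes was 2737 and 2829 against 2778 and 2835.5. Mitochondrially encoded reads made up a median of 3.66% and 3.71% against 3.75% and 4.09%, and reads of ribosomal protein genes 4.63% and 4.29% against 5.69% and 4.85%. Cells at or above their plate's median read number were Atf3-positive in 25% and 29.4%, and those under it in 34.5% and 32.4%. Of noncycling cells in edge wells, 2 of 19 were positive on plate 1 and 12 of 35 on plate 2. The part of read depth and well position in the shares was not tested.

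To ask what goes with Atf3, the reads of all cells of a group on a plate were added up, giving 2 positive sums of 45231698 and 50098667 reads and 2 negative sums of 106543196 and 116454554 reads. Levels are CPM of these sums, with no correction for gene length, so they are compared between groups and not between genes. The plates hold the same pups in both groups, so that the plate pairs the sums. In edgeR's quasi-likelihood test without the plate, 0 of 12530 genes passed a Benjamini-Hochberg adjusted p of 0.05 (0.0%), 638 had an unadjusted p under 0.05, and DESeq2 on the same sums called 80 higher genes (0.638%) and 72 lower genes (0.575%). With the plate as a block, edgeR called 4 genes (0.0319%), namely Ccn1, Klf6 and Fos, which rose, and Cdkn1c, which fell. The calls below are those of the block model, with the adjusted p without the block beside them. For all other genes, values are given and no change is claimed.

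Fos (ENSMUSG00000021250, chromosome 12, 85473890 to 85477273), which encodes a subunit of the AP-1 transcription factor, was at 7340 and 6854 CPM in the positive sums and at 3137 and 3442 CPM in the negative sums. The positive sums lay 2.16-fold higher in mean (7097 ± 344 against 3289 ± 215 CPM, SD, n = 2), and the groups did not overlap. Its log2 fold change was 1.18 ± 0.08 (SE) with the block (edgeR adjusted p = 0.0207) and 1.18 ± 0.15 without (adjusted p = 0.482). Fos was not restricted to the Atf3-positive cells. At least 20 CPM of Fos were found in 100% and 98.5% of the positive cells and in 87.8% and 86.8% of the negative cells. The median negative cell carried 1850 CPM of Fos on plate 1 and 2414 CPM on plate 2, against 6757 and 7603 CPM in the median positive cell.

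Klf6 (ENSMUSG00000000078, chromosome 13, 5861482 to 5870394), a zinc finger transcription factor, was at 2506 and 2444 CPM in the positive and at 878 and 785 CPM in the negative sums. The difference was 2.98-fold in mean, with a log2 fold change of 1.65 ± 0.11 with the block (edgeR adjusted p = 0.0186) and 1.64 ± 0.18 without (adjusted p = 0.304). Once each cell had been thinned to 100000 reads, Klf6 was detected in 93.9% and 93.8% of positive cells and in 69.4% and 72.5% of negative cells.

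Ccn1 (ENSMUSG00000028195, chromosome 3, 145646976 to 145649981), formerly Cyr61, encodes a secreted matrix protein and is a classical target of the factors SRF and YAP. It showed the clearest difference, at 3289 and 4635 CPM in the positive sums against 782 and 1037 CPM in the negative sums, which is 4.36-fold in mean. The log2 fold change was 2.19 ± 0.09 with the block (edgeR adjusted p = 0.00283) and 2.19 ± 0.23 without (adjusted p = 0.304). At least 20 CPM were present in 84.6% and 83.6% of positive cells and in 46.1% and 54.2% of negative cells. The 3 cells with most reads held 44.3% of the reads of the positive sum of plate 1 and 21.2% of that of plate 2.

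Cdkn1c (ENSMUSG00000037664, chromosome 7, 143458339 to 143461050), which encodes the cell cycle inhibitor p57Kip2 and belonged to the list of promyelinating and myelin genes, was the gene that fell. The positive sums held 152 and 253 CPM and the negative sums 667 and 1037 CPM, 4.21-fold more in mean. Its log2 fold change was -2.01 ± 0.15 with the block (edgeR adjusted p = 0.025) and -2.00 ± 0.33 without (adjusted p = 0.925). A level of at least 20 CPM was found in 30.8% and 34.3% of positive and in 62.6% and 71.5% of negative cells. Among positive cells, 3 cells held 77.5% and 67.2% of its reads. Its exons overlap those of Gm44732 on the opposite strand, and strand use in counting was not stated, so its count is uncertain to that extent. In the Ncmap-positive cells, summed whatever their Atf3 level, Cdkn1c stood at 1132 and 1546 CPM.

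Immediate-early transcription factors other than Fos and Klf6 were mostly at higher levels in the positive sums. Of 24 genes on this list, 22 were tested, and 14 had both positive sums above both negative sums, against 14.2% of all genes tested, while 0 had both below, against 22.4% of all genes. The median log2 fold change of the 22 genes was 1.13, against -0.01 over all genes tested. Summed over the list, these genes made up 13880 and 14410 CPM of the positive sums and 6116 and 6699 CPM of the negative sums, with Fos the largest contributor. Apart from Fos and Klf6, edgeR called 0 of them with or without the block. At an unadjusted p under 0.05 there were 9 genes of the list, Fos and Klf6 included, all higher, and DESeq2 called 7.

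Jun, the partner of Fos in AP-1, was at 612 and 894 CPM in the positive and 281 and 329 CPM in the negative sums (log2 fold change 1.37 ± 0.25, edgeR adjusted p = 0.925, and 0.251 with the block). Egr1, a zinc finger factor induced by growth signals, was at 1045 and 1182 against 394 and 626 CPM. Ier2 was at 443 and 589 against 163 and 264 CPM. These 3 genes did not overlap between the groups. Fosb, an AP-1 subunit, was at 145 and 141 against 47.6 and 32.1 CPM, and was found in fewer cells, 24 and 29 positive and 24 and 37 negative ones. Nr4a1, an orphan nuclear receptor, differed less, with 940 and 1308 against 653 and 586 CPM. Junb was at 123 and 174 against 51.7 and 79.4 CPM, and 3 cells held 53.4% of its reads in the positive sum of plate 1. Exons of Jun overlap those of Junos, and those of Junb overlap Prdx2, on the opposite strand.

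Genes that damp these signals lay on both sides, more of them higher. Of 20 genes on the feedback list, 19 were tested, 11 had both positive sums above both negative sums and 2, Dusp4 and Rgs2, had both below, with a median log2 fold change of 1.15. Among all genes tested, 14.2% had both above and 22.4% both below. edgeR called 0 of the 19 with or without the block, 8 higher and 1 lower gene had an unadjusted p under 0.05, and DESeq2 called 6 higher genes and 1 lower gene, Dusp4. Dusp1, a phosphatase of MAP kinases, was at 474 and 557 CPM in the positive and at 98.9 and 187 CPM in the negative sums (log2 fold change 1.93 ± 0.34, edgeR adjusted p = 0.925, and 0.238 with the block). Its exons overlap Ergic1 on the opposite strand. Socs3, an inhibitor of cytokine signalling through JAK and STAT, was at 142 and 161 against 42.0 and 34.8 CPM. Spry2, an inhibitor of receptor tyrosine kinase signalling, was at 645 and 1036 against 248 and 518 CPM. Zfp36l1, which promotes the decay of mRNAs with AU-rich elements, was at 253 and 290 against 125 and 132 CPM. Btg2, an antiproliferative gene, was at 369 and 457 against 220 and 83.6 CPM, with 3 cells holding 32.7% to 39.6% of the reads of each sum. These 5 genes were higher in the positive sum of each plate.

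**Figure D2:**
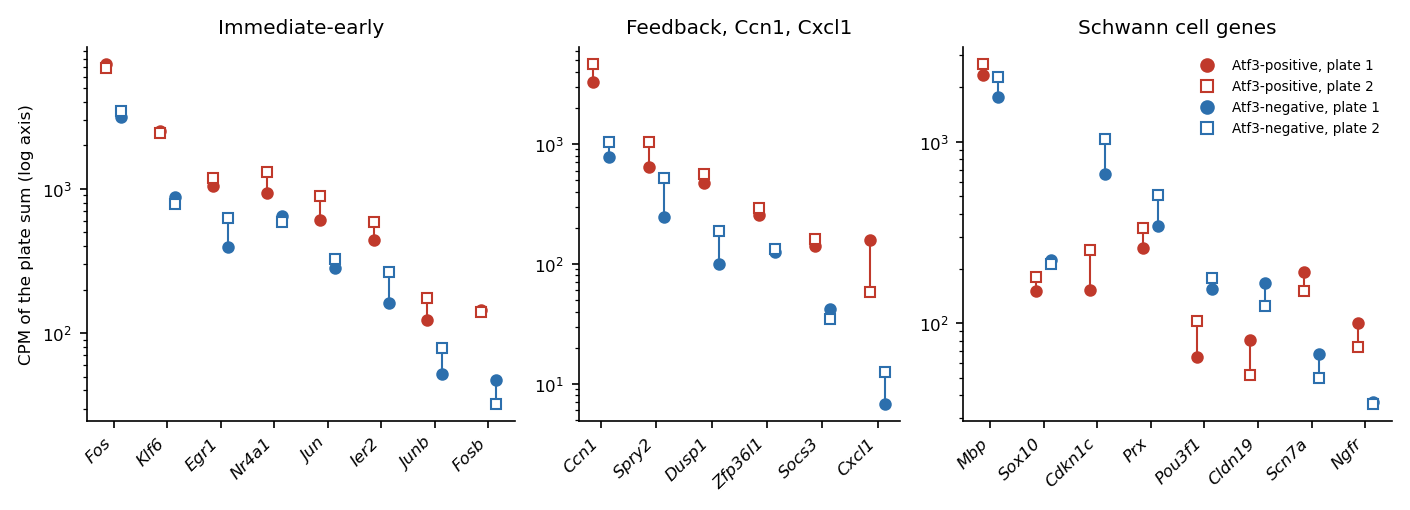
Level of 22 genes in the sums of noncycling cells, in CPM on a log axis, with Atf3-positive sums in red and Atf3-negative sums in blue. Filled circles are plate 1 and open squares plate 2, and a line joins the plates. All 8 immediate-early genes and the 6 genes of the middle panel have both red points above both blue points, and Cdkn1c shows the reverse.

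Within the positive cells, the genes were also set against the level of Atf3. On each plate the positive cells were divided at their median Atf3 level, by the same Atf3 values that had chosen them. The division is a description of cells of 1 pool, carries no test and adds no support to the comparison above. Fos was at 5482 and 4710 CPM in the lower part and at 8801 and 8895 CPM in the upper part. Ccn1 was at 1759 and 3462 CPM in the lower part and at 4492 and 5753 CPM in the upper, and Ier2 at 222 and 389 against 617 and 780 CPM. Klf6 moved little, from 2335 and 2091 to 2641 and 2780 CPM. The lower part was still above the negative sums for Fos, Klf6 and Ccn1 on both plates. For Btg2, the lower part held 160 and 116 CPM, within the range of the negative sums, and the upper part 533 and 781 CPM.

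Cxcl1 (ENSMUSG00000029380, chromosome 5, 90891241 to 90893115), a chemokine that attracts neutrophils, was found in few cells. Its level was 157 and 58.0 CPM in the positive and 6.76 and 12.4 CPM in the negative sums. At 20 CPM or more it was found in 6 of 52 and 6 of 67 positive cells and in 2 of 115 and 2 of 144 negative cells. The 3 leading cells held 90.8% and 90.4% of its reads in the positive sums. Its log2 fold change of 3.57 ± 0.68 was not called (edgeR adjusted p = 0.925, and 0.75 with the block). The positive cells with Cxcl1 were among those with a read of Ngfr or L1cam, where it reached 227 and 84.6 CPM, whereas in positive cells without such a read it was at 0 CPM on both plates.

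Other chemokines and cytokines were absent or found in few cells. Cxcl10, an interferon-induced chemokine, held more reads than Cxcl1, at 201 and 70.7 CPM in the positive and 189 and 33.8 CPM in the negative sums, ranges that overlap. It was found in 6 and 5 positive and in 3 and 6 negative cells, and was added here after its values had been seen. Of 20 genes on the list, 4 had enough reads to be tested and 13, among them Ccl2, Il6, Il1b and Tnf, had no read in any of the sums. Csf1 was at 3.91 and 6.31 against 0.15 and 0.489 CPM, from 3 and 4 positive cells. Of the 3 genes first taken as markers of these cells, Atf3 was thus the selection itself, Fos differed in degree and was present in most negative cells, and Cxcl1 rested on 12 positive cells.

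Genes of protein stress were spread in both directions. Of 15 heat shock and chaperone genes tested, 4 had both positive sums above both negative sums and 3 had both below, with a median log2 fold change of 0.15. For this and the next lists, the shares over all genes tested were 14.2% with both above and 22.4% with both below. The list summed to 6265 and 5197 CPM in the positive and to 6226 and 6117 CPM in the negative sums. Hsp90ab1, an abundant chaperone, was at 2739 and 2042 against 3013 and 2562 CPM, ranges that overlap. Hspd1, the mitochondrial chaperonin, was at 81.6 and 142 CPM in the positive and at 245 and 262 CPM in the negative sums, and was not called (edgeR adjusted p = 0.925). Its exons overlap those of Hspe1 on the opposite strand. Of 14 genes of the unfolded protein response, 2 lay above and 4 below, with a median log2 fold change of -0.12. For oxidative stress and metal response genes the counts were 2 above and 3 below of 13.

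Atf4, the transcription factor of the integrated stress response and a regulator of Atf3, was at 336 and 180 CPM in the positive and at 84.7 and 118 CPM in the negative sums (log2 fold change 1.42 ± 0.39, edgeR adjusted p = 0.925). Of the 17 genes tested on its list, 4 lay above and 2 below, with a median of 0.15. For this and the next lists, the shares over all genes tested were 14.2% above and 22.4% below. Of 15 genes of the p53 and DNA damage list, 5 lay above and 0 below, with a median of 0.61. Gadd45g led this list at 120 and 39.4 against 12.5 and 14.9 CPM, yet it was found in 3 and 5 positive cells. Of 14 genes of the NF-kB pathway 6 lay above and 1 below, with a median of 1.18, and 0 of them had an unadjusted p under 0.05. On the lists of this and the previous paragraph edgeR called 0 genes with or without the block. At an unadjusted p under 0.05 there were Atf4 and 1 lower gene of the integrated stress response, 1 higher p53 gene and 1 lower chaperone gene, and DESeq2 called 1 higher and 1 lower gene of the integrated stress response and 1 higher p53 gene.

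**Figure D3:**
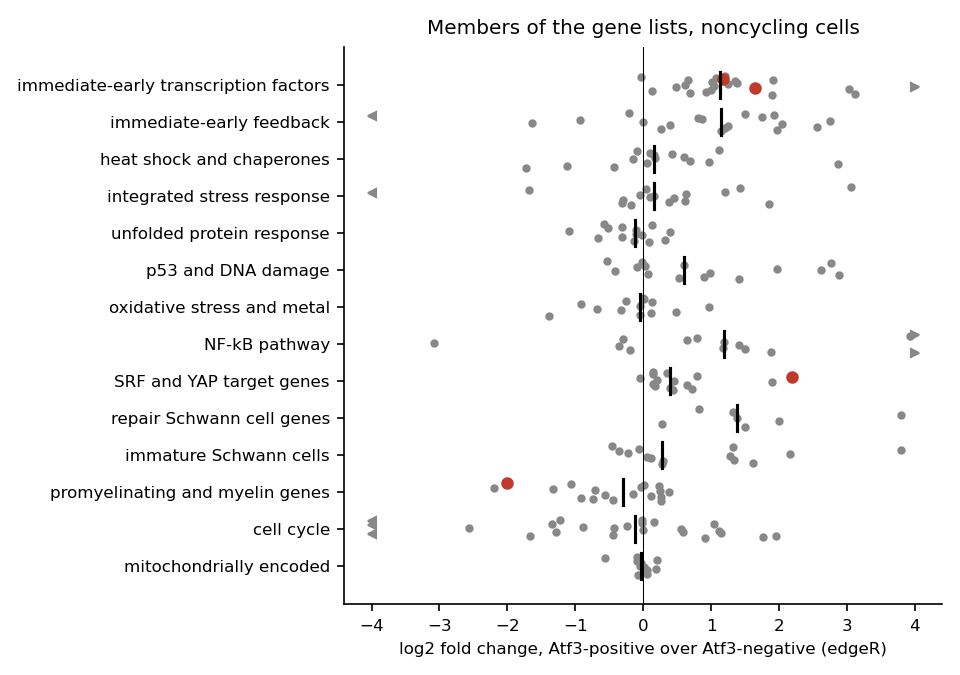
Log2 fold change of Atf3-positive over Atf3-negative sums (edgeR without the plate) for each tested member of 14 gene lists, 1 point per gene, with the list's median as a black bar. Red points passed the test with the plate as a block, and triangles mark members beyond the range of the axis. The medians of both immediate-early lists lie at 1.13 and 1.15, those of the NF-kB and repair lists at 1.18 and 1.37, and those of the heat shock, unfolded protein and mitochondrial lists near 0.

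Genes of the SC lineage were read next, because the positive share differed between classes. SC identity genes marked both groups. Sox10, the lineage transcription factor, was at 151 and 180 CPM in the positive and 224 and 211 CPM in the negative sums, S100b at 114 and 98.1 against 74.5 and 97.0 CPM, and Erbb3, the neuregulin receptor, at 549 and 255 against 304 and 234 CPM. Of 14 genes of immature SCs, 6 lay above and 0 below, with a median log2 fold change of 0.28. The shares over all genes tested were 14.2% above and 22.4% below. Ngfr was at 100 and 74.2 against 36.9 and 35.8 CPM and L1cam at 52.7 and 121 against 32.9 and 42.5 CPM. Scn7a, a sodium channel gene of nonmyelinating SCs, was at 191 and 151 against 67.2 and 49.9 CPM. Id3, an inhibitor of basic helix-loop-helix factors, was at 117 and 210 against 42.6 and 34.1 CPM, with 3 cells holding 83.7% of its reads in the positive sum of plate 2. Cdh19, a cadherin of glial precursors, was at 231 and 250 against 103 and 118 CPM.

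Of 18 promyelinating and myelin genes, 6 lay below and 2 above, with a median of -0.30. Over all genes tested, 22.4% lay below and 14.2% above. Pou3f1, the transcription factor Oct6 of promyelinating SCs, was at 65.0 and 103 CPM in the positive and at 155 and 177 CPM in the negative sums. Cldn19, a claudin of the myelinating SC, was at 80.4 and 51.9 against 167 and 124 CPM, and Prx, a scaffold protein of myelin, at 258 and 336 against 343 and 511 CPM. Mbp, the major basic protein of myelin, lay in the other direction at 2314 and 2676 against 1752 and 2279 CPM. Of these lineage genes edgeR called 0 without the block and Cdkn1c alone with it. DESeq2 called Cdkn1c (adjusted p = 1.94e-07) lower and Id3 (4.00e-04), Scn7a (0.00616) and Cdh19 (0.00873) higher, and edgeR without a filter on low counts called Cdkn1c. Of 7 genes tested of the repair SC list, 5 lay above and 0 below, with a median of 1.37, among them Jun and Tnfrsf12a, a cytokine receptor gene at 90.3 and 84.6 against 24.6 and 40.8 CPM. Shh, Olig1 and Gfap of the same list had no read in these sums.

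To hold the cell class more nearly equal, the comparison was repeated within the noncycling cells with a read of Ngfr or L1cam and within those without. In either class edgeR called 0 genes, with 496 genes at an unadjusted p under 0.05 in the first and 1083 in the second, so the values are descriptions. Fos was at 7675 and 8136 against 3862 and 4202 CPM in cells with such a read, and at 6586 and 4046 against 2628 and 2820 CPM in cells without. Klf6 was at 3087 and 3241 against 1514 and 1127 CPM in the first class and at 1202 and 701 against 431 and 506 CPM in the other. Ccn1 was at 3847 and 5963 against 920 and 1352 CPM, and at 2036 and 1731 against 684 and 780 CPM. For each of these 3 genes both positive sums lay above both negative sums in each class. Cdkn1c was at 112 and 145 against 170 and 610 CPM in cells with a read, and at 244 and 488 against 1016 and 1386 CPM in cells without, lower in the positive sums of each class.

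Other genes separated within 1 class only. Dusp1 was at 629 and 672 against 77.2 and 193 CPM among cells with a read of Ngfr or L1cam, and at 124 and 306 against 114 and 182 CPM among cells without. Id3 was at 130 and 306 against 21.1 and 30.2 CPM in the first class and at 86.8 and 0 against 57.6 and 37.3 CPM in the second. Whether these classes differed was not tested. The class without such a read rests on 13 and 16 positive cells.

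Cycling cells, which the selection had set aside, were a further place to look at the same genes. Here 13 and 20 positive cells were compared with 39 and 34 negative ones, in sums of 11277391 to 35546385 reads. edgeR called 0 of 10960 genes (0.0%) with or without the block, 470 genes had an unadjusted p under 0.05 and DESeq2 called 119. Ccn1 was at 2316 and 3550 against 773 and 974 CPM (log2 fold change 1.74 ± 0.28). Fos was at 5517 and 7420 against 2896 and 4969 CPM, Klf6 at 1930 and 1229 against 648 and 1014 CPM, and Ier2 at 500 and 651 against 177 and 256 CPM. Cdkn1c was at 118 and 52.2 against 180 and 298 CPM. These 5 genes did not overlap between the groups, in the direction seen in noncycling cells. Over all genes tested in cycling cells, 13.3% had both positive sums above and 19.7% both below. Of the immediate-early transcription factors 11 of 22 lay above and 2 below, and of the feedback genes 6 of 17 above and 1 below.

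Lineage genes other than Cdkn1c mostly overlapped between the sums of cycling cells. Of the immature list, 2 of 14 genes lay above and 1 below, of the promyelinating and myelin list 2 of 18 above and Cdkn1c below, and of the identity list 1 of 6 above and 0 below. The shares over all genes tested in cycling cells were 13.3% above and 19.7% below. Ngfr was at 30.2 and 36.8 against 32.8 and 39.3 CPM there, Scn7a at 115 and 62.5 against 78.2 and 83.2 CPM, and Pou3f1 at 45.2 and 88.3 against 52.9 and 70.4 CPM. In a model with both classes the difference of the Atf3 effects was tested directly, and 0 of 13431 genes passed (edgeR), with 460 at an unadjusted p under 0.05. The difference for Fos was 0.49 ± 0.34 and that for Ccn1 0.48 ± 0.64 on the log2 scale (SE), larger in noncycling cells. No gene was therefore shown to differ with Atf3 to another degree in the 2 classes.

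**Figure D4:**
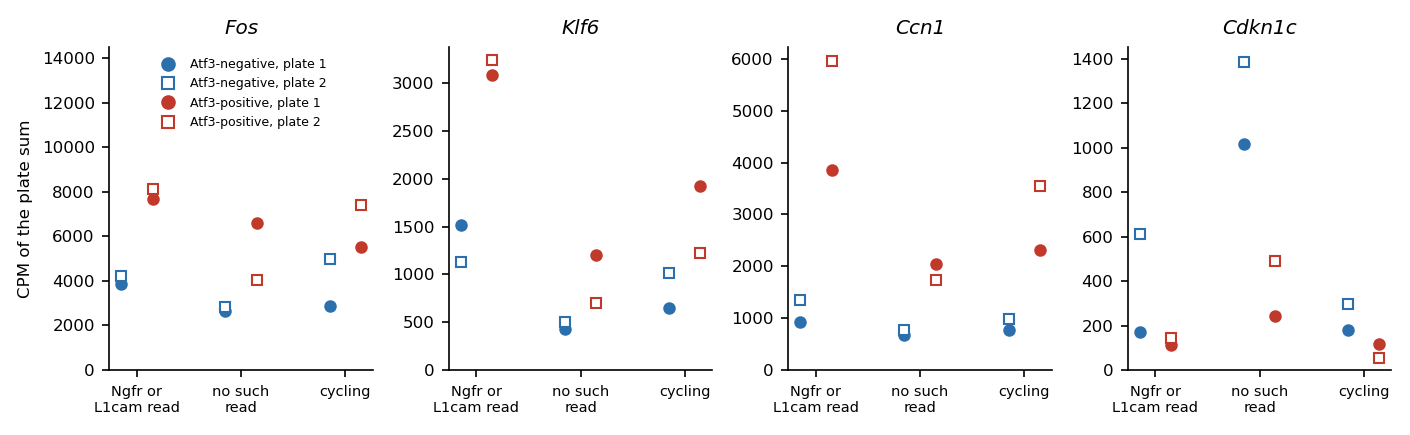
Level in CPM, on axes that start at 0, of Fos, Klf6, Ccn1 and Cdkn1c in sums of Atf3-negative (blue) and Atf3-positive (red) cells of plate 1 (filled circles) and plate 2 (open squares), for noncycling cells with and without a read of Ngfr or L1cam and for cycling cells. In each of the 3 classes both red points of Fos, Klf6 and Ccn1 lie above both blue ones, and those of Cdkn1c below.

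Cells in between and cells of the myelination class completed the picture. The 14 cells with Atf3 reads under 20 CPM, 8 on plate 1 and 6 on plate 2, had 1642 and 6439 CPM of Ccn1, 4308 and 7000 CPM of Fos and 659 and 2468 CPM of Klf6. All Ncmap-positive cells, 59 on plate 1 and 60 on plate 2, were summed whatever their Atf3 level, and 2 cells of plate 2 were Atf3-positive. These sums had 221 and 158 CPM of Ccn1, 1871 and 1961 CPM of Fos and 299 and 577 CPM of Klf6. They lay below the noncycling negative sums for each of the 3 genes. Egr1, at 174 and 231 CPM, was also lower there than in the noncycling negative sums. The order of Fos levels was thus Ncmap-positive cells, Atf3-negative noncycling cells and Atf3-positive noncycling cells, with no overlap between neighbours on these 2 plates.

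Outside the lists edgeR called 0 genes with or without the block. Considered were genes in the same direction on both plates, with a mean of at least 20 CPM in the higher group. They also needed at least 5 cells with a read on each plate in that group, and Gm and Rik names were left out. Of these genes, the 5 of smallest unadjusted p on each side are given as values. DESeq2 called all of these, with adjusted p from 4.02e-10 for Anxa1 to 0.00965 for Dusp16, and edgeR without a filter on low counts called Col6a2 and Eif2ak2 outside the lists. Anxa1, encoding the phospholipid-binding annexin A1, was at 896 and 331 against 52.9 and 91.4 CPM, with 3 cells holding 78.2% of its reads in the positive sum of plate 1. Rab7b, a small GTPase, was at 197 and 107 against 40.2 and 32.0 CPM, Natd1 at 88.1 and 67.9 against 15.3 and 16.6 CPM, Arhgef16 at 87.8 and 70.1 against 19.9 and 15.7 CPM, and Fam129a at 49.9 and 10.7 against 0.357 and 0.584 CPM. On the lower side, Bzw2 was at 261 and 248 against 503 and 554 CPM and was the most widely detected of these genes. Mpp6, a membrane scaffold, was at 29.9 and 40.7 against 123 and 132 CPM, Dusp16, a phosphatase of JNK, at 17.4 and 14.8 against 78.4 and 76.6 CPM, Zfp566 at 5.15 and 7.25 against 54.9 and 41.3 CPM, and Lrrc75a at 0.309 and 0.0998 against 31.2 and 26.5 CPM. Bzw2 and Mpp6 were at 1017 and 1039 and at 611 and 653 CPM in the Ncmap-positive cells, above both noncycling groups.

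By size alone, 145 genes of at least 20 CPM were over 2-fold higher and 180 over 2-fold lower in the positive sums of both plates, while 236 were over 2-fold apart in opposite directions on the plates. Large ratios of single genes were therefore common in sums of this many cells.

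Markers of other cells and of the cell cycle were read beside these results, and their part in them was not tested. The endothelial, immune, perineurial, mural, neuronal and erythrocyte lists summed to at most 80.1 CPM in any sum. Cdh5, Kdr, Pdgfra, Ptprc, Tyrobp, Lyz2, Acta2, Rgs5 and Rbfox3 had no read in any of the 4 sums. Of the fibroblast-like list, 4 genes were tested, Col1a1, Col3a1 and Col15a1 lay above and Dcn below, and 2 higher genes and 1 lower gene had an unadjusted p under 0.05 (edgeR, adjusted p over 0.05, and 0 called by DESeq2). Dcn was at 0.111 and 3.69 CPM in the positive and at 49.9 and 13.9 CPM in the negative sums, from 4 negative cells on each plate. Col3a1 was at 5784 and 5955 against 4812 and 4208 CPM and was found in nearly every cell. Of 24 cell cycle genes, 5 lay above and 9 below, with list sums of 2853 and 2668 against 2905 and 2847 CPM. Of all genes tested, 14.2% lay above and 22.4% below. Cdk1, a kinase of mitosis that the selection did not use, was at 0.0221 and 0.239 CPM in the positive and at 19 and 26.9 CPM in the negative sums, from 5 and 11 negative cells. Of the cell cycle list edgeR called 0 genes with or without the block, and DESeq2 called 1 lower gene, Cdk1. At an unadjusted p under 0.05 (edgeR) there were 1 higher and 1 lower gene of this list. With all cells left out that held a read of Mki67, Top2a or Ncmap, the log2 fold change was 1.16 for Fos, 1.70 for Klf6, 2.18 for Ccn1 and -1.99 for Cdkn1c.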

How the data were processed

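Single SCs of postnatal day 1 sciatic nerve were measured in 743 wells of 2 plates. The authors deposited counts, that is, numbers of reads for each gene in each well, made with STAR and featureCounts and without molecular identifiers or normalisation. The submitters' processing notes name STAR 2.6.1c and GRCm38.p5, whereas the methods of the study name another STAR version and a human assembly. All gene IDs of the table are mouse IDs, and strand use in counting was not stated in the sources used here. Of 25700 IDs, 25664 had a symbol and 32 shared one. Doublets were not called, since 1 cell was sorted per well, and the wells under 1500 genes were left out.

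The counts of all cells of a class on 1 plate (n = 2 plates) were added up, and edgeR 4.0.16 compared the sums (robust glmQLFit, glmQLFTest, filterByExpr and TMM, no plate term), with Benjamini-Hochberg adjustment over all genes tested. Atf3, Mki67, Top2a and Ncmap, which chose the cells, were left out of the tests. SEs were derived from the fold change and the F statistic. Sums of the same plate come from the same pups. Their deviations from the group means correlated at r = 0.20 over 3687 genes of at least 50 CPM, and the plate was added as a block in an alternative model. DESeq2 1.42.0 and limma 3.58.1 served as further alternatives. Gene positions are those of GENCODE M21. Of the 5 genes looked up for upstream sequence, all matched RefSeq. P-values without the block measure a difference against the spread between the plate sums of a group. With the block they measure it against how far the group difference varied between the 2 plates. Both borrow spread from other genes, since 2 plates estimate it poorly.

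The members, the gene lists and the tests were chosen with earlier results of these data known. Named are the marker genes, the called members of the lists and up to 4 uncalled members per list of high level. Outside the lists edgeR called no gene with or without the block. The 5 genes of smallest p on each side, under the conditions given in the Results, were therefore named. Ccn1 and Ccn2 were listed under older symbols and matched through RefSeq synonyms. The list of nuclear retained RNAs was not analysed here.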

Additional observations from a re-analysis of the deposited data

Results flagged for a closer look

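Of the wells under 1500 detected genes, which entered no comparison, 8 of 83 on plate 1 reached 20 CPM of Atf3 (9.64%, exact 95% binomial interval 4.25% to 18.1%), a signal outside the cells compared. On plate 2 it was 0 of 39 (exact interval 0% to 9.03%). Whether the plates differed in this was not tested.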

How the results depend on the processing

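The number of genes called between Atf3-positive and Atf3-negative noncycling cells was 0 in the model without the plate and rose to 4 with the plate as a replicate block (3 higher and 1 lower), 9 without a filter on low counts (7 and 2) and 152 with DESeq2 (80 and 72). In the settings added after seeing the data, with genes of at least 20 CPM only, it was 2 (both higher, Ccn1 and Klf6) and, with the block as well, 11 (9 and 2: Ccn1, Klf6, Fos, Dusp1, Apoe, Jun, Egr1, Spry2, Ier2, and Cdkn1c and Itih5). Leaving out 1 sum gave 0 to 1 called genes, namely Synpo2 without the positive sum of plate 1 and Anxa1 without that of plate 2, where the lone sum is assumed to vary like the others. It was 0 in the remaining alternatives, among them thinning to 100000 reads, other minimum numbers of genes per cell, an Atf3 level of 100 CPM, the mean of cells with limma and each class of Ngfr or L1cam reads. Among cycling cells it was 0, 10 without the filter, 119 with DESeq2 and 0 to 105 with 1 sum left out (22 without the positive sum of plate 1 and 105 without that of plate 2). Over 2-fold apart were 325 genes on both plates, 2172 on plate 1 alone and 1932 on plate 2 alone. The Atf3-positive share was 27.9% at 100 CPM, by construction lower than the main 30.3%, and moved by less than the SD between plates otherwise. Of 55 genes named, 49 kept the sign of the log2 fold change in every alternative. The exceptions were Hsp90ab1 (-0.411 to 0.0568 with 1 sum left out, the latter without the positive sum of plate 2), Cxcl10 (-0.637 to 2.10 likewise, the former without the positive sum of plate 1 and -0.446 without the negative sum of plate 2, and -0.040 with an Atf3 level of 100 CPM), Erbb3 (-0.0427 to 1.11, the former without the positive sum of plate 1), Tnfrsf12a and Id3 (-0.23 and -0.0402 in cells without an Ngfr or L1cam read) and Cdk1 (0.93 with cells of at least 1000 genes). For Fos it ran from 0.96 to 1.24, for Klf6 from 1.11 to 1.74, for Ccn1 from 1.45 to 2.40 and for Cdkn1c from -2.40 to -1.51. Except where stated, the cause was not tested. The contrast within Ncmap-positive cells was not run, since 0 and 2 of them were Atf3-positive. With 2 plates and 52 to 144 cells a sum, genes found in few cells cannot be read, since 3 cells can hold most of their reads.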
